A study of Mus musculus with 9 samples.

Results

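The genes described here are 9 transcripts linked to the transitional state that lung epithelium passes through after injury: Krt7, Krt8, Krt18, Krt19, Cldn4, Sfn, Clu, Itgb6 and Sprr1a. They were taken by symbol from a table of 25526 names, and all 9 were present. Each also passed the filter for testing, which asked for 3 or more libraries with an FPKM of 1 or above and left 14540 genes. FPKM counts fragments per length of transcript and per sequencing depth, so levels can be compared between genes.

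The libraries came from whole lung of 9 mice, 3 of them normal, 3 from a model of pulmonary fibrosis and 3 labelled PepNzymeSOD-CAT, called the nanozyme group below. Nanozymes are man-made catalysts that mimic enzymes, here by its name superoxide dismutase and catalase. The series asked how this material acts in pulmonary fibrosis. The labels give no strain, age, sex, inducer of fibrosis, dose or sampling time, and do not state whether the nanozyme mice also carried the fibrosis model. Each library was 1 mouse.

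When the alveolar surface is damaged, alveolar type 2 cells can divide and flatten into the thin alveolar type 1 cells that carry gas exchange. On the way they pass through an intermediate state rich in simple-epithelial keratins, and similar cells accumulate in fibrotic lung. The keratins Krt8 and Krt18 pair as type II and type I subunits of the same intermediate filament, and Krt7 and Krt19 accompany them in many simple epithelia. All 4 keratins, and the tight junction protein Cldn4, are also normal products of airway epithelium, so in whole lung these transcripts have more than 1 source.

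In GENCODE vM21 on GRCm38, all 9 are protein-coding genes. Krt7 (ENSMUSG00000023039.17, chr15:101411043-101430313, plus strand), Krt8 (ENSMUSG00000049382.10, chr15:101996698-102004482, minus strand) and Krt18 (ENSMUSG00000023043.7, chr15:102028180-102032027, plus strand) share a chromosome, and Krt8 and Krt18 lie 23.7 kb apart. Krt19 (ENSMUSG00000020911.14) is at chr11:100140810-100148665, minus strand. Cldn4 (ENSMUSG00000047501.3, chr5:134945119-134946934, minus strand) and Sfn (ENSMUSG00000047281.3, chr4:133600556-133602168, minus strand) each have 1 exon. Clu (ENSMUSG00000022037.15) is at chr14:65968483-65981547, plus strand. Itgb6 (ENSMUSG00000026971.15) is at chr2:60598292-60722643, minus strand, and Sprr1a (ENSMUSG00000050359.7) at chr3:92483952-92485895, minus strand. Antisense genes overlap exons of Krt7 (Gm671, 77 bases) and Krt8 (Gm36026, 101 bases). The strand setting of the counting is not given in the sources used here, so such reads cannot be told apart. Sprr1a has close relatives in its gene family, and reads can be shared between them.

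Promoter sequence from RefSeq (GRCm38.p6) was matched for 7 of the 9 genes; Krt19 and Clu are named only. Below are the 250 bases before the start of the neighbours Krt8 and Krt18, whose levels ran together across the libraries, and of Sprr1a and Cldn4, which held matches to the AP-1 motif TGANTCA, shown in capitals.
Krt8: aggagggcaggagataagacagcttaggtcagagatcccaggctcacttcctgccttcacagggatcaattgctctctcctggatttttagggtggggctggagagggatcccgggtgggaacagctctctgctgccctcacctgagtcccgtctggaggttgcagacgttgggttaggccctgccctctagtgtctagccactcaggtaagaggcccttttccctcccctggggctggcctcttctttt
Krt18: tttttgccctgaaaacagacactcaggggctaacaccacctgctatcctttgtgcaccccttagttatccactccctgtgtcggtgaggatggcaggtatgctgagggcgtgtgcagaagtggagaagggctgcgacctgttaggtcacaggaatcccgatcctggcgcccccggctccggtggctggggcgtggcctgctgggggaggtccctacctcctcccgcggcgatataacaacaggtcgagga
Sprr1a: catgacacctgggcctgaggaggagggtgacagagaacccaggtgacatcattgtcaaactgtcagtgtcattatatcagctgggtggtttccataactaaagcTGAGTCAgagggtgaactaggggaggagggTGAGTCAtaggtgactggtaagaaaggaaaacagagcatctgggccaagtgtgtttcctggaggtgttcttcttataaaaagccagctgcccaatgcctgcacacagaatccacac
Cldn4: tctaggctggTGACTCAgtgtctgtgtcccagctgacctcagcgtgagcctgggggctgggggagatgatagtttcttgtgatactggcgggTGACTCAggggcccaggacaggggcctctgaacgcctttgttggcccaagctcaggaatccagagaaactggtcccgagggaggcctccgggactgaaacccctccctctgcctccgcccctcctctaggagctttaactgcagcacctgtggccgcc
These windows are chr15:102004343-102004592 (minus strand), chr15:102027966-102028215 (plus strand), chr3:92485882-92486131 (minus strand) and chr5:134946935-134947184 (minus strand). The starts are those of RefSeq. For Krt8, Krt18 and Sprr1a they lie inside the GENCODE spans given above, so part of each of these printed windows does too. Matches were sought on both strands of the windows from 250 bases before to 50 bases after each start. Sprr1a held TGAGTCA at 146 and 116 bases before the start, and Cldn4 held TGACTCA at 240 and 158 bases before it. No window of the other 5 genes held the motif. Of 32851 mouse windows, 7.81% held at least 1 match and 0.460% held 2 or more. The TEAD motif GGAATG was in none of the members' windows and in 14.7% of all windows. A match is a run of letters, not evidence of binding.

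Several libraries stood apart before any test. Nanozyme replicate 2 lay at 43.3 on the first principal component, among the model libraries at 39.5 to 61.2, whereas the other nanozyme libraries lay at -14.4 and -9.68. Model replicate 2 and nanozyme replicate 1 carried transcripts of stratified squamous epithelium, a lining found in the oesophagus and skin. The keratin Krt13 was at 386 and 107 FPKM in these libraries and at most 0.330 in the other 7, and Krtdap was at 150 and 32.6 FPKM against 0. Summed over 10 markers of keratinocytes or oesophageal epithelium, these libraries held 608 and 200 FPKM, and the others 1.43 to 20.7. Normal replicate 3 lay between normal replicates 1 and 2 at 53.9% of 12104 genes, where the other 8 libraries lay between their partners at 17.96% to 44.1%. Among the 390 genes at which normal replicates 1 and 2 differed over 2-fold, it lay between them at 86.9%, with a median weight of 0.459 on replicate 1. Whether it is an independent library was not tested, and the calls of the members and the list counts that move without it are given both ways. Neutrophil markers were higher in model than in normal lung for 10 of 10 (limma), and their summed FPKM was 40.1 to 48.6 in normal, 2501 to 3234 in model and 1128 to 3327 in nanozyme libraries. Fewer cells of a type and less RNA per cell cannot be told apart in whole lung.

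In model lung, Clu and Itgb6 rose, and the other 7 genes did not pass the test. Clu, a secreted chaperone also called clusterin, rose 2.04-fold in mean FPKM, and Itgb6, the beta 6 integrin subunit through which epithelium activates latent TGF-beta, rose 1.61-fold. Krt7 was higher in every model than in every normal library but missed the threshold, and for Krt8, Krt18, Krt19, Cldn4, Sfn and Sprr1a the normal and model libraries overlapped. By limma with Benjamini-Hochberg adjustment over all tested genes, 2 of 9 were called, both higher. Across all genes, 40.1% were called, 17.4% higher and 22.7% lower, so a count of 2 in 9 is near the background. Normal and model libraries did not overlap for 3 members (Krt7, Clu and Itgb6), against 58.5% of all genes. The median change of the 9 was 0.316 (log2), against -0.121 over all tested genes.

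**Figure D1:**
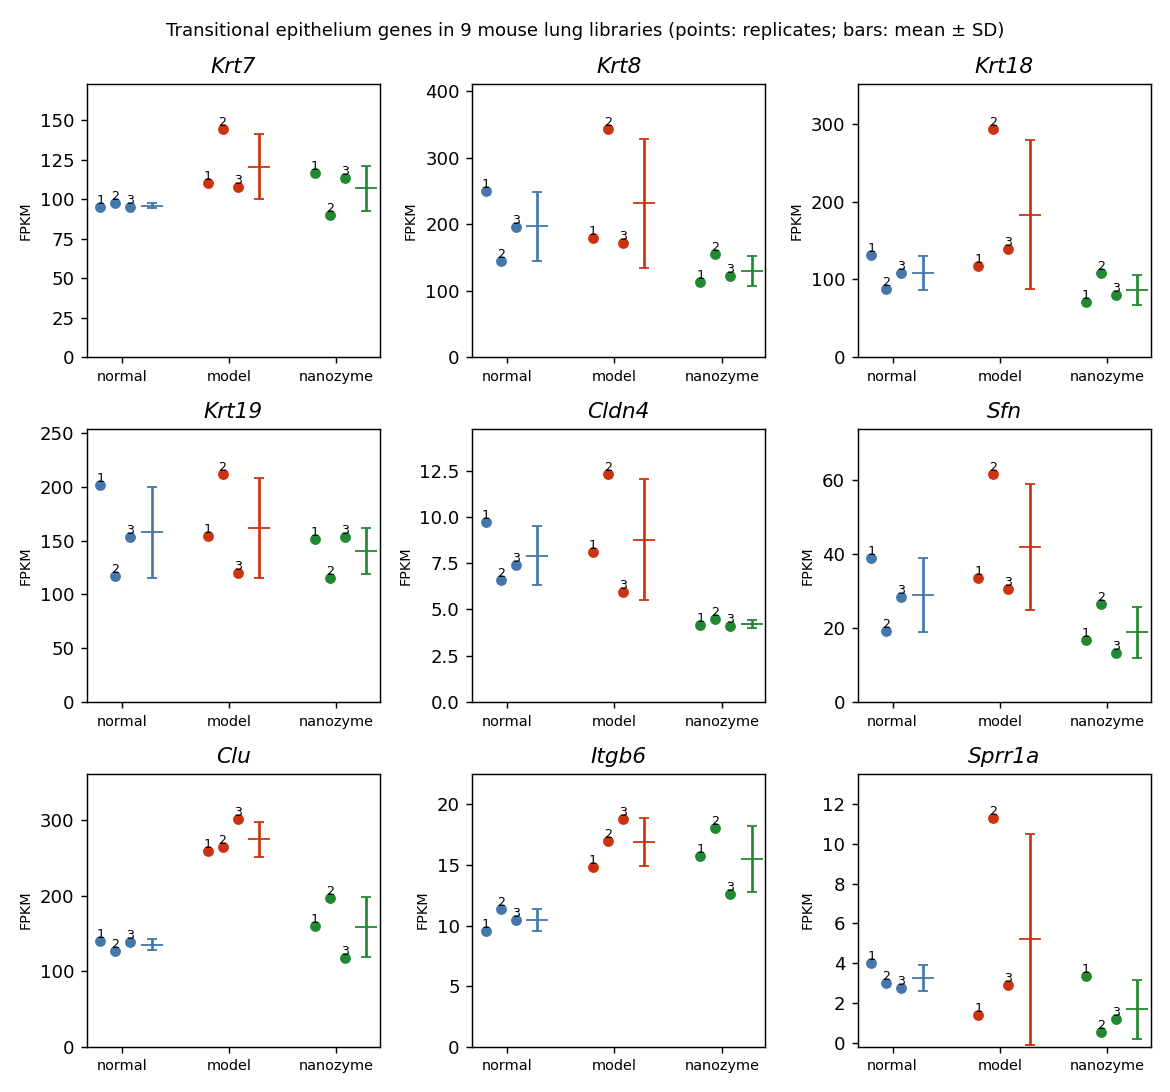
FPKM of the 9 genes in each library, by group; points are mice numbered by replicate and bars are mean ± SD (n = 3 per group). Clu and Itgb6 separate model from normal lung, whereas for Krt8, Krt18, Cldn4, Sfn and Sprr1a the highest point is model replicate 2.

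Krt8, the type II keratin that gives the transitional state its usual name, was at 249, 145 and 196 FPKM in normal lung (replicates 1 to 3 here and below), at 179, 343 and 171 in model lung and at 112, 155 and 122 in nanozyme lung. Model replicate 2 was the highest of the 9, and the other model libraries lay inside the normal range. The change from normal to model was 0.19 ± 0.30 (log2 ± SE, limma, adjusted p = 0.636), with a 95% interval from -0.49 to 0.87. Without model replicate 2 it was -0.13.

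Krt18, the partner of Krt8, was at 131, 87.0 and 108 FPKM in normal, 117, 293 and 140 in model and 71.2, 108 and 79.7 in nanozyme lung. The model libraries again overlapped the normal ones, with model replicate 2 far above the rest. The change was 0.65 ± 0.33 (limma, adjusted p = 0.151), and 0.25 without model replicate 2. The FPKM of Krt8 divided by that of Krt18 was 1.91, 1.67 and 1.81 in normal, 1.53, 1.17 and 1.23 in model and 1.58, 1.43 and 1.53 in nanozyme lung. This ratio of partners was higher in each normal library than in any of the other 6, and the difference was not tested.

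Krt7, a type II keratin of simple and glandular epithelia, was at 95.2, 97.7 and 94.7 FPKM in normal, 110, 144 and 108 in model and 117, 90.0 and 114 in nanozyme lung. All model libraries were above all normal ones, but the change of 0.32 ± 0.15 missed the threshold (limma, adjusted p = 0.114); with columns scaled to equal sums it passed, at 0.39 (adjusted p = 0.0453). Krt19, the smallest type I keratin, was at 202, 118 and 153 FPKM in normal, 154, 212 and 120 in model and 152, 115 and 153 in nanozyme lung. The 3 groups overlapped throughout, and the change from normal to model was 0.03 ± 0.26 (limma, adjusted p = 0.929), with an interval from -0.55 to 0.62.

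Cldn4, a claudin that tightens the paracellular barrier, was at 9.71, 6.61 and 7.42 FPKM in normal, 8.10, 12.3 and 5.92 in model and 4.13, 4.46 and 4.08 in nanozyme lung. The nanozyme libraries were the lowest 3, close to each other, while normal and model overlapped (0.10 ± 0.23, limma, adjusted p = 0.760). Sfn, the epithelial 14-3-3 sigma protein and a p53 target, was at 39.1, 19.1 and 28.5 FPKM in normal, 33.5, 61.7 and 30.6 in model and 16.8, 26.6 and 13.2 in nanozyme lung. Normal and model overlapped here too (0.51 ± 0.36, limma, adjusted p = 0.283). Sprr1a, a small proline-rich protein of the cornified envelope that other injured cells also express, was at 3.99, 3.02 and 2.74 FPKM in normal, 1.40, 11.3 and 2.90 in model and 3.36, 0.535 and 1.17 in nanozyme lung. Its model libraries held both the highest of the 9 values and one below every normal value (0.21 ± 0.58, limma, adjusted p = 0.798). Without model replicate 2 the fitted change from normal to model turned negative for Cldn4 (-0.15) and Sprr1a (-0.46), as for Krt8 and Krt19 (-0.18), with none of the 4 passing.

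Clu was at 140, 127 and 139 FPKM in normal, 259, 264 and 302 in model and 160, 197 and 117 in nanozyme lung. Every model library was above every other library. The rise from 135 ± 7.48 to 275 ± 23.3 FPKM (mean ± SD, n = 3 per group) was 1.02 ± 0.18 on the log2 scale (limma, adjusted p = 0.00364). Itgb6 was at 9.54, 11.4 and 10.4 FPKM in normal, 14.9, 16.98 and 18.8 in model and 15.7, 18.04 and 12.6 in nanozyme lung. All 6 model and nanozyme libraries were above the 3 normal ones. The rise in model lung was 0.64 ± 0.15 (limma, adjusted p = 0.00993). Both calls held without model replicate 2 (adjusted p = 0.0111 for Clu and 0.0271 for Itgb6), where 16.3% of all genes were called higher. They also held without normal replicate 3 (adjusted p = 0.0163 and 0.0363), where 13.2% were called higher. Clu is also made by many cells other than epithelium, so its source in the lung was not resolved.

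**Figure D2:**
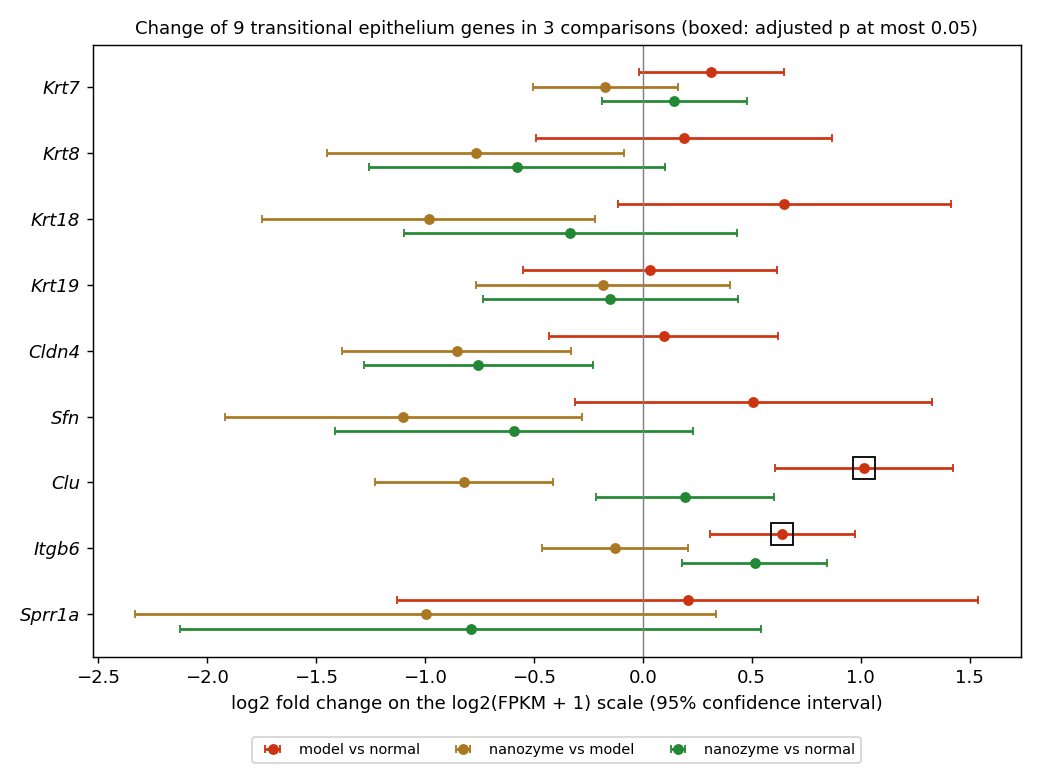
Fitted log2 fold change of each gene in the 3 comparisons with its 95% confidence interval; black boxes mark adjusted p at most 0.05 (limma, Benjamini-Hochberg). The boxes are Clu and Itgb6 in model vs normal. No interval of nanozyme vs model is boxed, although those of Krt8, Krt18, Cldn4, Sfn and Clu lie below 0. Without model replicate 2, a fit not drawn here, those of Krt8 and Sfn included 0.

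Between nanozyme and model lung, none of the 9 genes passed the test, and neither did any other gene: 0% of 14540 were called by limma with Benjamini-Hochberg adjustment, and 3211 (22.1%) had an unadjusted p under 0.05. At that unadjusted level 5 members lay lower in nanozyme lung: Krt8, Krt18, Cldn4, Sfn and Clu. The same 5 did not overlap between the groups, against 16.4% of all genes. Their fitted changes were -0.77 ± 0.30 for Krt8, -0.98 ± 0.33 for Krt18, -0.85 ± 0.23 for Cldn4, -1.10 ± 0.36 for Sfn and -0.82 ± 0.18 for Clu (adjusted p from 0.181 to 0.196). Without model replicate 2 these were -0.44, -0.59, -0.60, -0.79 and -0.85 (limma adjusted p from 0.310 to 0.364). The 95% intervals of Krt8 (-0.99 to 0.10) and Sfn (-1.60 to 0.02) then included 0. For Krt7 (-0.17), Krt19 (-0.18) and Itgb6 (-0.13) the values were close to 0, with 95% intervals from -0.50 to 0.16, -0.76 to 0.40 and -0.46 to 0.21. Sprr1a had a change of -0.996 ± 0.58 and an interval from -2.33 to 0.34, which holds values on both sides of 0. The median over the 9 genes was -0.821, against 0.0945 over all tested genes. This comparison shares its model libraries with the one above.

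Without nanozyme replicate 2, the library that lay among the model libraries, limma called 22.1% of all genes in this comparison, 9.64% as lower. Of the 9 genes, Sfn (-1.37 ± 0.36, adjusted p = 0.0328) and Clu (-0.995 ± 0.15, adjusted p = 0.00388) were then called lower in nanozyme than in model lung. Cldn4 (adjusted p = 0.0510) and Krt18 (adjusted p = 0.0590) came next and did not pass. With model replicate 2 left out as well, 2 members were called, Clu (-1.02, adjusted p = 0.00745) and Krt18 (-0.76, adjusted p = 0.0363), and Sfn was not; 10.2% of all genes were called lower there. Clu was the member called in both fits, which share libraries and each rest on 2 nanozyme mice. Nanozyme replicate 2 was left out because of its place in these same data, so the calls are no independent support. With it kept and only model replicate 2 left out, none of the 9 genes was called.

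Nanozyme and normal lung did not differ past the threshold for any of the 9 genes, where limma with Benjamini-Hochberg adjustment called 13.9% of all genes. Cldn4 and Itgb6 came nearest and were the members with an unadjusted p under 0.05. Cldn4 was at 4.23 ± 0.206 FPKM in nanozyme and 7.91 ± 1.61 in normal lung (mean ± SD, n = 3 per group; -0.76 ± 0.23, limma adjusted p = 0.0621). Itgb6 was at 15.5 ± 2.71 against 10.4 ± 0.908 FPKM (0.51 ± 0.15, limma adjusted p = 0.0507). These were also the 2 members whose libraries did not overlap, against 42.9% of all genes. Both calls depended on the fit: Cldn4 passed without model replicate 2 (adjusted p = 0.0237), without model replicate 3 (0.0357) or with only the 2 groups fitted (0.0266), and Itgb6 without nanozyme replicate 3 (0.0304), with a pseudocount of 0.1 (0.0497) or with equal column sums (0.0467). Clu was at 158 ± 39.9 FPKM in nanozyme lung, and its difference from normal was 0.20 with an interval from -0.21 to 0.60.

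In normal and model lung, the libraries with the highest levels of several members were also those highest in transcripts of larger airways. Bpifa1, a secreted protein of the upper airway and large bronchi, was at 4599, 2.34 and 2131 FPKM in the normal libraries, at 81.0, 636 and 1.46 in model and at 661, 3.66 and 6.31 in nanozyme. Krt15, a keratin of basal cells, was at 27.7, 0.0943 and 12.7 FPKM in normal, 0.917, 25.3 and 0 in model and 1.39, 0.178 and 0.490 in nanozyme lung. Among the normal libraries both were highest in replicate 1 and lowest in replicate 2, and so were Krt8, Krt18, Krt19, Cldn4 and Sfn. In model lung, replicate 2 was highest for both, for the airway secretoglobin Scgb3a1 (787, 2935 and 34.5 FPKM in model and 602, 193 and 54.7 in nanozyme lung) and for Krt7, Krt8, Krt18, Krt19, Cldn4, Sfn and Sprr1a. In nanozyme lung, replicate 1 was the highest for Bpifa1, Krt15 and Scgb3a1 and held squamous transcripts too. It was also the highest of its group for Krt7 and Sprr1a, yet had the lowest Krt8 and Krt18 of the 9 libraries. Summed over 10 mesothelial markers, the nanozyme libraries held 372, 76.1 and 273 FPKM. The normal libraries held 94.4 to 117 and the model libraries 111 to 159. Krt7 and Krt19 were also lowest of the nanozyme group in replicate 2. How much the amount of airway, squamous or mesothelial tissue in each piece of lung contributed to these values was not tested.

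**Figure D3:**
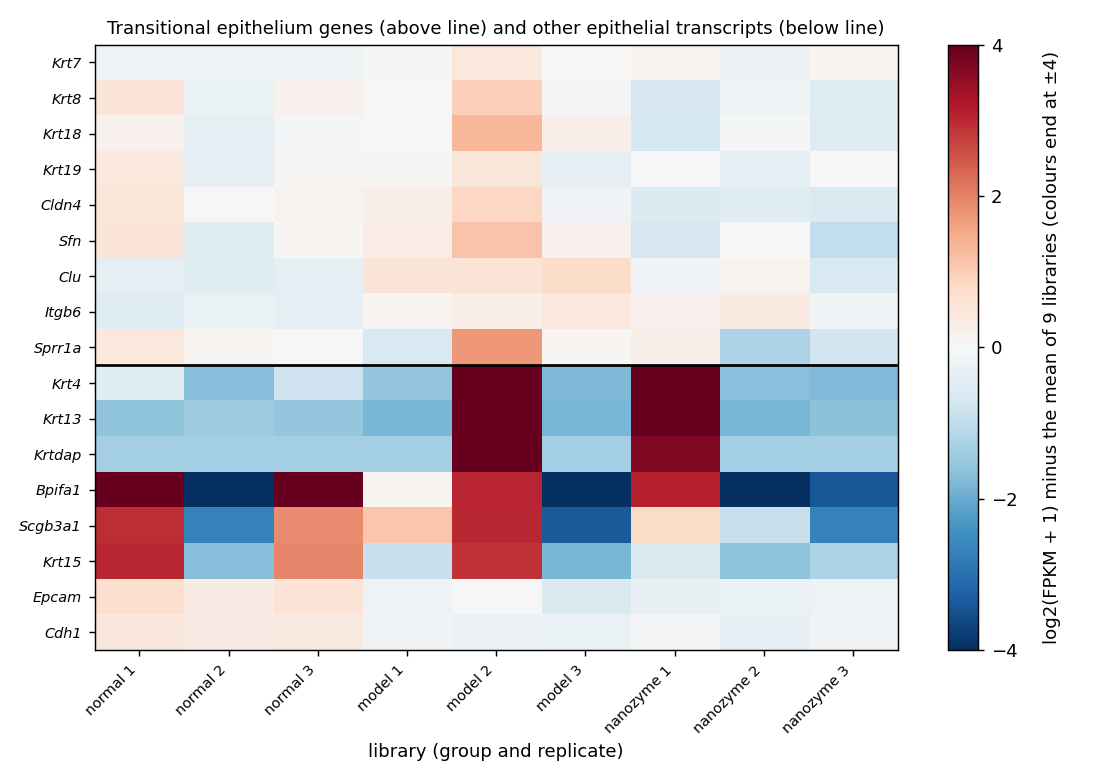
Level of each gene in each library as log2(FPKM + 1) minus its mean over the 9 libraries; the 9 genes are above the line, and squamous (Krt4, Krt13, Krtdap), airway (Bpifa1, Scgb3a1, Krt15) and general epithelial (Epcam, Cdh1) transcripts below. Squamous transcripts are high in model replicate 2 and nanozyme replicate 1, and airway transcripts differ between replicates of every group.

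Patterns across the 9 libraries were compared pair by pair. Pearson's r of log2(FPKM + 1) was 0.948 between Krt8 and Sfn, 0.934 between Krt8 and Cldn4, 0.926 between Krt18 and Sfn and 0.925 between Krt8 and Krt18. Clu and Itgb6 correlated at 0.780 with each other, whereas Itgb6 with Krt8 stood at -0.0694 and Clu with Krt19 at -0.00525. Other pairs lay in between: Clu correlated at 0.642 with Krt18 and at 0.631 with Sfn, Krt19 at 0.672 with Krt8 and Sprr1a at 0.677 with Krt8. These are descriptions over 9 libraries that share group differences and tissue make-up. Other tested genes were ranked too, leaving out predicted genes, clone names, new-gene names, pseudogenes and antigen receptor segments. Among those ranked, the pattern of Clu was most like Lrrc59 (0.989), Arf6 (0.984) and Lox (0.984), an enzyme that cross-links collagen. That of Krt18 was most like Anxa1 (0.971), an annexin of epithelium and myeloid cells, that of Krt8 like Acadl (0.948) and that of Sfn like Srfbp1 (0.970). Krt19 was nearest to Phyh (0.907), Fxyd3 (0.904) and Pkp3 (0.895), the last a plaque protein of desmosomes. Krt7 was nearest to Ercc3 (0.980), Cldn4 to Taf7 (0.937), Itgb6 to Cmtr1 (0.971) and Sprr1a to Cops2 (0.947).

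Levels were also set against the epithelium as a whole. Of 17 pan-epithelial markers, such as the adhesion molecules Epcam and Cdh1, 11 fell and 0 rose in model lung by limma. Across all tested genes 22.7% fell and 17.4% rose. Without normal replicate 3, 9 of the markers fell. Their summed FPKM was 1046 to 1094 in normal, 601 to 760 in model and 727 to 812 in nanozyme libraries. Divided by that sum, Clu was 12.6 ± 0.439% in normal, 41.3 ± 8.19% in model and 21.1 ± 6.35% in nanozyme lung (mean ± SD, n = 3 per group). Krt8 was 18.3 ± 4.47%, 34.5 ± 14.9% and 17.2 ± 3.52%, and Sfn 2.68 ± 0.874%, 6.25 ± 2.62% and 2.52 ± 1.04%. On this scale 8 of 9 members, all but Sprr1a, were higher in every model than in every normal library. The smaller denominator lifts any gene, and 57.1% of all tested genes did the same. Krt8, Krt18, Cldn4, Sfn and Clu were lower in every nanozyme than in every model library on this scale, as were 8.7% of all genes. The ratio does not tell which cells made each transcript, and it was not tested.

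**Figure D4:**
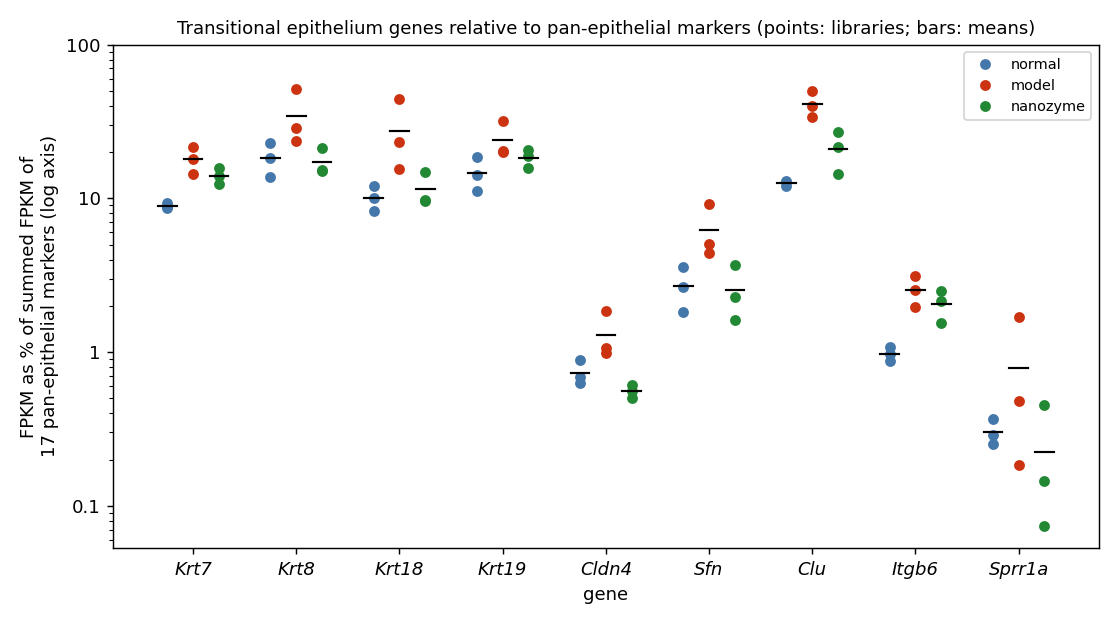
FPKM of each gene as a percentage of the summed FPKM of 17 pan-epithelial markers, on a log axis; points are libraries and bars are group means. Model points lie above normal points for each gene except Sprr1a.

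Other genes linked to the transitional state moved in both directions in model lung. Of 25 tested, 12 rose and 5 fell by limma, with a median of 0.509, where 17.4% of all tested genes rose and 22.7% fell. Without normal replicate 3 the counts were 9 and 4. Lcn2, an iron-trapping protein made by injured epithelium and neutrophils, was at 76.7, 72.0 and 72.8 FPKM in normal, 3887, 5412 and 3969 in model and 257, 3526 and 470 in nanozyme lung (5.87 ± 0.80 in model vs normal, adjusted p = 0.00141). The normal libraries lay far below all others, and nanozyme replicate 2 stood with the model libraries. Hbegf, a growth factor of the EGF family, rose by 1.52 ± 0.18 (limma adjusted p = 0.000901), Tnip3, an inhibitor of NF-kB signalling, by 2.68 ± 0.35 and Tnfrsf12a, the receptor for TWEAK, by 0.93. Chosen after their values were seen, Areg, another EGF family ligand, fell by 0.91 and Krt23 by 1.62. In nanozyme against normal lung, 4 of the 25 were higher (Lcn2, Hbegf and, named after their values were seen, Ndrg1 and Msn) and Areg was lower. Of the 14540 tested genes, 1220 were called higher and 800 lower there. Without normal replicate 3 none of the 25 was called in either direction. Between nanozyme and model lung 0 of the 25 were called, as were 0% of all genes. Without nanozyme replicate 2 the counts were 2 higher and 9 lower, where 22.1% of all genes were called, 9.64% as lower. Several of these genes are also expressed by leukocytes. In model lung 10 of 10 neutrophil markers rose, with a median of 4.62, whereas this list moved in both directions. How much leukocytes contributed to these changes was not tested.

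**Figure D5:**
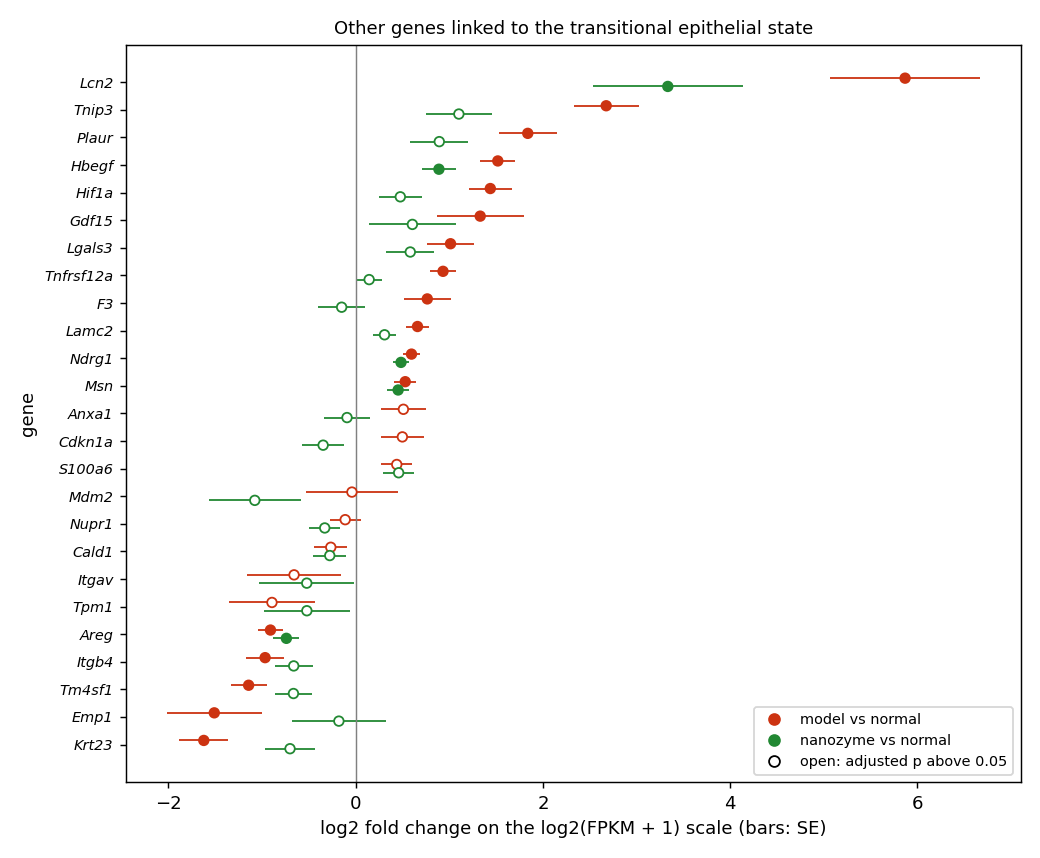
Fitted log2 fold change ± SE of 25 other genes linked to the transitional state, model vs normal in red and nanozyme vs normal in green; open points have adjusted p above 0.05. In model lung 12 rose and 5 fell, with Lcn2 at 5.87 and Krt23 at -1.62 the ends of the range.

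The structural partners of the keratins and of Cldn4 fell where they changed, in a comparison where 22.7% of all tested genes fell. Of 10 tested keratin partners at junctions, 6 fell and 0 rose in model lung (3 fell without model replicate 2 or without normal replicate 3), among them the desmosomal cadherin Dsg2 (-0.78 ± 0.16, limma adjusted p = 0.00604), the plaque protein Dsp (-0.87) and the plakophilin Pkp2 (-0.73). Of 7 other keratins tested, Krt23 and Krt10 fell and none rose. Of 19 other claudin and tight junction genes, 8 fell and 0 rose (7 fell without model replicate 2 or normal replicate 3), including Cldn10 (-1.33 ± 0.13, limma adjusted p = 0.000331), Cldn3 (-1.23), Cldn8 (-1.81) and Cldn23 (-1.32). Cldn3, an abundant airway and alveolar claudin, was at 152, 154 and 153 FPKM in normal, 78.5, 60.8 and 56.7 in model and 88.5, 82.8 and 102 in nanozyme lung. Every normal library was above every other library. In nanozyme against normal lung 5 of the 19 fell (3 without normal replicate 3). Of the 14540 tested genes, 800 were called lower in that comparison with all libraries kept. Cldn4 itself had a fitted change of 0.10 in model lung, with an interval from -0.43 to 0.62, and its difference from the other claudins was not tested. The pan-epithelial sums were lower in the same libraries, and their part in these falls was not tested. Cldn3 and Cldn7, which both fell, belong to the claudin list and to the pan-epithelial list, so the lower sums are partly the same falls.

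Around Itgb6, 6 genes of the alpha v integrins and latent TGF-beta rose in model lung and 1 of 18 fell. The shares over all tested genes were 17.4% higher and 22.7% lower. Without normal replicate 3 the list counts were 3 and 0. Tgfb1, the ligand held in latent form until integrins pull on it, was at 19.7, 23.4 and 22.2 FPKM in normal, 60.3, 47.2 and 53.1 in model and 44.1, 48.3 and 40.3 in nanozyme lung. All 6 non-normal libraries were above the normal ones, with changes of 1.26 ± 0.12 in model (limma adjusted p = 0.000389) and 0.99 ± 0.12 in nanozyme lung (adjusted p = 0.00213). Tgfbi, a matrix protein induced by TGF-beta, rose by 3.90 ± 0.48. Itgav, the alpha subunit that Itgb6 needs, was at 10.96, 11.03 and 11.4 FPKM in normal, 5.07, 4.16 and 13.5 in model and 11.9, 11 and 2.90 in nanozyme lung. This gene, picked after its values were seen, scattered among replicates of the model and nanozyme groups and did not pass (-0.66 ± 0.51, limma adjusted p = 0.323).

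For Sfn, the related lists gave mixed directions in model lung, as did all tested genes (17.4% higher and 22.7% lower). Among 6 other 14-3-3 genes, Ywhag and Ywhah rose (0.64 and 0.35) and Ywhaq fell by 0.37, a call absent with median-of-ratios scaling or equal column sums (0 lower). With quantile normalization 1 of the 6 rose and 2 fell, and without normal replicate 3 this list stood at 1 higher and 0 lower. Among 15 p53 target genes, 4 rose, including the death receptor Fas (1.02) and Sesn2 (0.52), and 2 fell, Bbc3 (-0.78) and Trp53inp1 (-0.46). Without model replicate 2 the p53 targets stood at 1 higher and 3 lower, and without normal replicate 3 at 1 and 2. Cdkn1a, the cell cycle inhibitor best known as a p53 target, was at 63.1, 65.5 and 67.1 FPKM in normal, 86.4, 106 and 86.9 in model and 44.4, 77.0 and 38.7 in nanozyme lung, and was picked after its values were seen. Its groups did not overlap between normal and model, yet it did not pass (0.50 ± 0.23, limma adjusted p = 0.112).

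For Sprr1a, 4 of 6 other tested cornified envelope genes rose in model lung and none fell, where 17.4% of all tested genes rose. Tgm1, the transglutaminase that cross-links the envelope, was at 1.33, 1.18 and 1.49 FPKM in normal, 10.7, 9.43 and 12.9 in model and 3.53, 8.24 and 3.02 in nanozyme lung. The normal libraries were the lowest 3, and model replicate 2, with its squamous transcripts, was the lowest of the model group (2.36 ± 0.29, limma adjusted p = 0.000905). Tgm2, the tissue transglutaminase, rose by 1.48 ± 0.19, S100a14 by 1.97 ± 0.43 and S100a11 by 0.80 ± 0.19. Unlike for Tgm1, model replicate 2 was the highest of its group for Tgm2, S100a14 and S100a11. S100a14 was at 24.3, 65.2 and 24.1 FPKM in the model libraries. Another 17 envelope genes of the list, Sprr3, Lor and Krtdap among them, did not pass the filter. These 3 were at 29.7, 15.4 and 150 FPKM in model replicate 2 and at 9.46, 32.2 and 32.6 in nanozyme replicate 1. In every other library they were at most 0.384, so the rise in model lung does not extend to them.

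For Clu, 3 genes of the clusterin-related list rose and 3 of 10 fell in model lung (1 fell without normal replicate 3). Over all tested genes the shares were 17.4% higher and 22.7% lower. Trem2, a myeloid receptor that can bind clusterin, rose by 2.73 ± 0.29 (limma adjusted p = 0.000537), the complement inhibitor Serping1 by 0.99 ± 0.11 and the extracellular chaperone A2m by 1.31 ± 0.21. Cd59a, which blocks the membrane attack complex as clusterin does, fell by 1.27. Trem2 and Serping1 were also higher in nanozyme than in normal lung (1.97 and 0.66).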

How the data were processed

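Whole-lung RNA from 9 mice was sequenced after oligo(dT) selection, with 1 library per mouse, per the labels' protocols. Reads were aligned with HISAT2 to GRCm38, per the submitters' processing notes; versions, annotation and counting tool are not given in the sources used here. The authors deposited FPKM values, which are scaled to transcript length and library size, in 1 table. Depth is unknown: among 1346 low genes, at most 3.86% of ratios between libraries fell in 1 bin, so no steps of whole reads were seen. Column sums were 443746 to 519772. Of 25526 names, 21437 matched GENCODE vM21 symbols.

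From the deposited values log2(FPKM + 1) was computed, and limma 3.58.1 (R 4.3.3) was fitted with a coefficient for each group over all 9 libraries, an intensity trend and Benjamini-Hochberg adjustment over the 14540 tested genes (two-sided, threshold 0.05). Changes are on that scale, which understates those of low genes. The fit was tested on simulated data. Exact permutation of 3 libraries against 3 was not used, since no single gene could pass. Figures used Python 3.11.15 and matplotlib 3.10.9. The 9 genes and all lists were chosen with earlier results of these data known. Like patterns are from the 3 highest Pearson correlations per member, after the exclusions given with them. List genes named are up to 4 that passed in model vs normal with the smallest adjusted p. Beside them stand genes that the text says were picked after their values were seen. A gene that the rule selects is not reported here. No library carries a batch or date label, and the nanozyme libraries are numbered apart from the rest, so a batch of theirs and the treatment cannot be told apart. Alternatives were a pseudocount of 0.1, other filters, 3 scalings, 2-group fits, no trend, a replicate block and leaving out libraries. Whether same-numbered libraries are paired could not be settled with 3 libraries per group.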

Additional observations from a re-analysis of the deposited data

How the results depend on the processing

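The calls of Clu and Itgb6 in model against normal lung held in every alternative run, with adjusted p from 0.000646 to 0.0175 and from 0.00533 to 0.0408 (limma). Leaving out 1 library at a time gave 3836 to 6590 genes called in model vs normal, 0 to 3216 in nanozyme vs model and 748 to 2258 in nanozyme vs normal, and 2 to 2, 0 to 2 and 0 to 1 of the 9 genes. The low ends of 3836 and 748 are without normal replicate 3, and the 3216 is without nanozyme replicate 2. Model vs normal changes then ran from -0.13 to 0.38 for Krt8, -0.18 to 0.23 for Krt19, -0.15 to 0.32 for Cldn4 and -0.46 to 0.72 for Sprr1a, nanozyme vs model from -0.38 to 0.0311 for Krt19 and -0.24 to 0.0030 for Itgb6, and nanozyme vs normal from -0.34 to 0.0476 for Krt19. Quantile normalization turned Krt8 to -0.14 and Krt19 to -0.26 in model vs normal. In nanozyme vs normal, 1 of the 9 genes was called with a pseudocount of 0.1, with equal column sums or in a fit of only the 2 groups. Without a filter 9 genes of the table were called in nanozyme vs model, and with a mean FPKM of at least 5, 1285 in nanozyme vs normal; Sprr1a has no value under that filter. Chosen after seeing the data, leaving out model replicate 2 with nanozyme replicate 1 gave 3 called genes in nanozyme vs model and 1 of the 9 in nanozyme vs normal (Sprr1a), and leaving it out with nanozyme replicate 2 gave 3342 called genes and 2 of the 9 in nanozyme vs model and 2 of the 9 in nanozyme vs normal. In both fits the model vs normal change was -0.13 for Krt8, -0.18 for Krt19, -0.15 for Cldn4 and -0.46 for Sprr1a, and in the second the nanozyme vs model change was 0.0798 for Krt7, 0.16 for Krt19 and 0.0072 for Sprr1a. The cause of these shifts was not tested. In model vs normal, median-of-ratios scaling shifted the all-gene median from -0.121 to -0.0102 and the share of calls that were higher from 43.4% to 53.6%. With equal column sums that share was 54.2%, and in nanozyme vs normal it was 70.4% against 60.4%; quantile normalization gave 47.0% there. The replicate block changed no call of the 9 genes: Clu kept 1.02 (adjusted p = 0.00993) and Itgb6 0.64 (adjusted p = 0.0162), and it called 5628, 0 and 1734 genes in the 3 comparisons. Same-numbered libraries correlated at -0.331 to 0.227 and differently numbered ones at -0.358 to 0.385. With 3 libraries per group this does not settle whether the numbers pair the mice. Unknown depth leaves the counting error of low genes such as Sprr1a and Cldn4 unknown.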

Other observations

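Lists of lung cell types gave the setting of the 9 genes in model against normal lung. Their counts stand beside 17.4% of all tested genes higher and 22.7% lower. Among 12 alveolar type 1 markers, 5 fell, including Hopx (-1.07) and Rtkn2 (-1.57), and Pdpn, also a marker of other stressed cells, rose by 1.26; without normal replicate 3 the counts were 3 lower and 1 higher. Among 13 alveolar type 2 markers, 4 fell, including the surfactant genes Sftpc (-1.53) and Sftpb (-1.28), and the lysozyme Lyz2, which macrophages also make, rose by 0.92; without normal replicate 3 the counts were 2 lower and 0 higher. Ciliated markers fell for 8 of 10 (6 without normal replicate 3) and club and secretory markers for 3 of 12 (Scgb1a1, Cyp2f2 and Scgb3a2), and neither list had a member that rose. Of 5 tested basal markers, Icam1 alone rose and none fell, with a list median of 0.0245. Of 10 mesothelial markers Msln rose, and of 10 endothelial markers 3 fell (1 without normal replicate 3, where Msln did not pass). Of 4 tested neuroendocrine markers, Uchl1 and Resp18 fell, and of 3 tested keratinocyte or oesophageal markers, Krt10 fell. In nanozyme against normal lung 5 ciliated and 2 club and secretory markers were lower, where 800 of the 14540 tested genes were called lower. Without normal replicate 3 these marker counts were 1 and 0.

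Transcription factors and targets of AP-1 and YAP/TAZ split in model lung: 4 of 14 rose, including Axl and Fosl2, and 5 fell, including Yap1 and Wwtr1. All tested genes split too, 17.4% higher and 22.7% lower. Without normal replicate 3 the list counts were 2 and 2. Axl was called in nanozyme against normal lung (0.76), though not without normal replicate 3.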
